A study of Mus musculus with 6 samples.

Results

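The initiation factors (gene symbols Eif) and elongation factors (Eef) are the soluble proteins that run protein synthesis on cytosolic ribosomes. A gene was counted among them if its platform symbol began with Eif or Eef and a digit, leaving out the X- and Y-linked Eif2s3 pair, and if it had a probe with a detection p-value under 0.05 on at least 3 of the 6 arrays. This gave 51 genes of 9978 measured and of 61 so named on the array. The symbol rule also takes in kinases, methyltransferases and binding proteins of the factors, and below "translation factor" means any of the 51. The probe that stood for the gene was above background on all 6 arrays in each of the 51. The other 10 genes had 13 probes, of which 12 were above background on no array and 1, for Eif2ak4, was above it on 1 wild-type array. The genes left out were Eef1akmt2, Eif1ax, Eif2ak4, Eif2s3x-ps1, Eif3e, Eif3m, Eif4e1b, Eif4ebp3, Eif4g3 and Eif5a2. Eif1, Eif2s1, Eif3g and Eif4g1 were not analysed here.

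The arrays came from the tibialis anterior, a mostly fast-twitch hindlimb muscle, of male mice aged 3 months. There were 3 arrays labelled as PGC1b transgenic, after the coactivator PGC-1β that drives mitochondrial genes, and 3 labelled wild type, all 1-colour Illumina Mouse WG-6 v2 arrays. The strain, the promoter of the transgene and whether each array is a separate animal are not given in the sources used here, so the p-values speak only of how far these arrays scatter, and that scatter may be technical. A level is a quantile-normalized, background-corrected log2 signal, and a change is the labelled transgenic mean minus the wild-type mean. "Rose" and "fell" are used for an adjusted p-value under 0.05 in limma, adjusted over all 9978 genes.

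Initiation brings the small ribosomal subunit, carrying eIF1, eIF1A, eIF3, eIF5 and the initiator tRNA held by eIF2, to the capped end of an mRNA through the eIF4 factors, and ends when eIF5B joins the large subunit. Elongation follows, in which eEF1A delivers each aminoacyl-tRNA and eEF2 moves the ribosome along. The pathway is throttled at 3 points that the array reads at the level of mRNA only: phosphorylation of eIF2 by its kinases, binding of the cap protein eIF4E by the 4E-binding proteins, and phosphorylation of eEF2 by its kinase. In rodents, mature muscle fibres and neurons use eEF1A2 in place of eEF1A1, the form of nearly all other cells, and the switch in muscle happens after birth.

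Some facts of the series bear on every value. Between 17525 and 17604 probes were above background in the arrays labelled transgenic and between 15338 and 15691 in wild type, of 45281 on the array. The Ppargc1b probe, which reads the gene named by the genotype, had lower signals in the arrays labelled transgenic, 7.54, 8.14 and 8.04, against 8.85, 9.33 and 9.49 in wild type (change -1.32, limma adjusted p = 0.000734), so the directions below rest on the labels. Whether this probe matches the transcript of the transgene was not examined. Of 12 muscle fibre markers 6 fell and 0 rose, with a median change of -0.21. Actn3, Myh4, Mylk2 and Pygm had changes of -3.91 to -2.46, and the other 8, Acta1 and Myh1 among them, -0.33 to 0.23. These 4 genes account for most of the gap in the list's mean log2 level, which was 12.82 to 13.03 in the arrays labelled transgenic and 14.04 to 14.07 in wild type. All 13 measured macrophage and immune markers rose, with a mean level of 9.39 to 10.05 in the arrays labelled transgenic and 7.19 to 7.39 in wild type, while Ptprc and Itgam were not above background on enough arrays. Of the 13, Fcgr1 was above background on no wild-type array, so it entered only through the arrays where it is high, and its difference is a bound (at least 3.71-fold higher). Without it 12 of 12 rose, with mean levels of 9.60 to 10.29 in the arrays labelled transgenic and 7.40 to 7.62 in wild type. Of 10 fibroblast and matrix markers 9 rose and 0 fell, with a mean level of 10.50 to 10.82 in the arrays labelled transgenic and 9.08 to 9.17 in wild type. Endothelial (2 of 7 fell), satellite cell (2 of 4 rose, 1 fell), nerve (1 of 2 rose, 1 fell) and red blood cell markers (0 of 3 called) made up the rest. The part of these cell types in the changes below was not tested, and in whole muscle fewer cells of a type and less RNA per cell cannot be told apart.

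Translation factors changed in both directions, at about the rate of all genes. Of the 51 genes 12 rose and 19 fell, 60.8% in all, where 56.3% of all genes tested were called, 28.1% as higher and 28.2% as lower. The groups did not overlap in 38 of the 51 genes (74.5%), against 63.8% of all genes. Changes of at least 2-fold were found in 7 genes, 3 higher and 4 lower (13.7%), against 17.3% of all genes. The median change of the 51 was -0.16, and that of all genes tested was -0.03. With arrays scaled to the median of all probes in place of quantile normalization, 14 rose and 13 fell, and all genes together then had a median change of 0.19. The 7 genes were Eif2ak2, Eif1ad and Eef1a1, which rose, and Eef2k, Eef1akmt1, Eif2s2 and Eif4ebp2, which fell. Each was called in the same direction under all 17 alternatives tried, but not always at 2-fold. Eif4ebp2 was at -0.73 with no background correction and at -0.72 with arrays scaled to the median of all probes. Eef1a1 was at 0.90 with arrays scaled to the median of probes detected on all arrays.

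**Figure D1:**
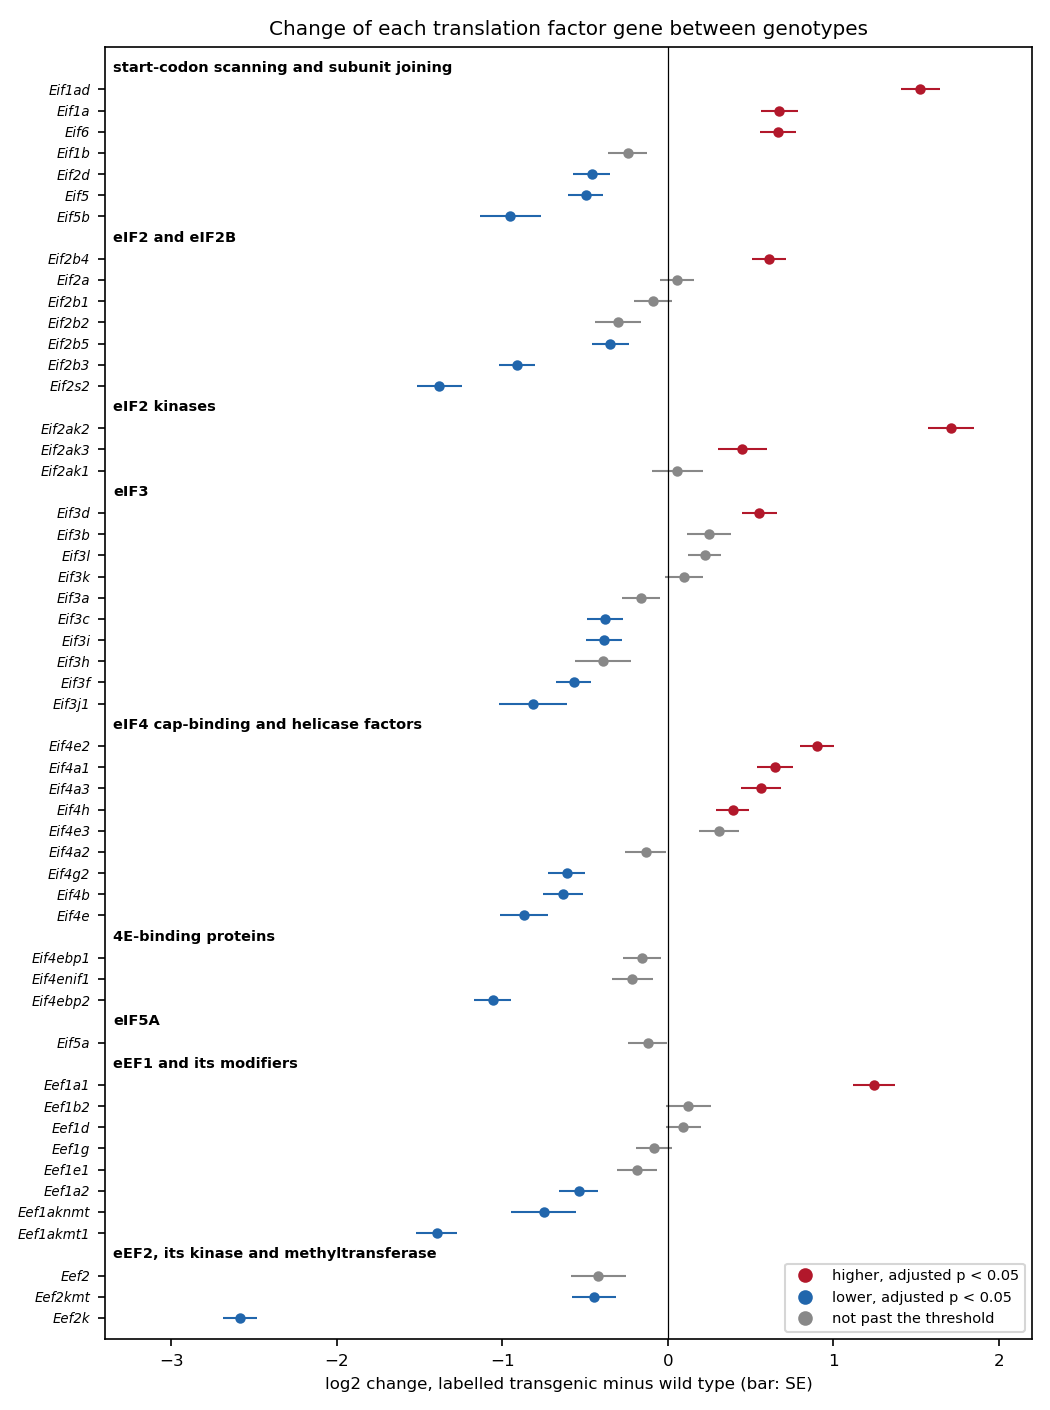
The log2 change of each of the 51 genes (horizontal axis, labelled transgenic minus wild type, bars are standard errors) is drawn by role. The largest changes are -2.59 for Eef2k and 1.71 for Eif2ak2, and each larger group holds genes on both sides of 0.

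The promoters of 3 genes are printed because their products form the isoform pair of elongation and the kinase with the largest rise. They are RefSeq sequences of build GRCm38.p6, from 250 bases before the annotated start to 50 after it, in the direction of the gene. Capitals mark a match, on either strand, to the core of the interferon-stimulated response element (GAAA, any 2 bases, GAAA) or to CAGCTG (an E-box form bound by myogenic factors). Eef1a1 lies at chr9:78481675-78481974, Eef1a2 at chr2:181156966-181157265 and Eif2ak2 at chr17:78882523-78882822, each on the minus strand.
Eef1a1: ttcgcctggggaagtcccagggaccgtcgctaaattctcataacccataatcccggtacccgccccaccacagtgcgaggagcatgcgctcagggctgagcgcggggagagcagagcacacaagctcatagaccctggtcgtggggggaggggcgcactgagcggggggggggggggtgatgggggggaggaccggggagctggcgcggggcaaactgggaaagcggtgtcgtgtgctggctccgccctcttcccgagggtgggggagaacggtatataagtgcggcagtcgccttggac
Eef1a2: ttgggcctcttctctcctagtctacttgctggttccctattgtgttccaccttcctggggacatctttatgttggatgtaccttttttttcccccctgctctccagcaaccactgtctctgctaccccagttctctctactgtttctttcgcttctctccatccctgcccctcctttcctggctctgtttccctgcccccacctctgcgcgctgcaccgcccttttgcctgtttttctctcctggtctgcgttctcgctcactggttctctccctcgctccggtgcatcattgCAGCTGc
Eif2ak2: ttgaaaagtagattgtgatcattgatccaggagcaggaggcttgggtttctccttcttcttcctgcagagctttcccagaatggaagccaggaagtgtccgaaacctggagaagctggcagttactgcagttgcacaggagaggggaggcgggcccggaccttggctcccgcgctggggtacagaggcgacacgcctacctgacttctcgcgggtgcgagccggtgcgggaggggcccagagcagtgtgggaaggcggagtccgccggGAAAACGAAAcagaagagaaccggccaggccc

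The Eif2ak2 window holds 1 response element, GAAAACGAAA, which begins 19 bases into the transcript. The Eef1a2 window holds 1 E-box, which begins at base 44, and the Eef1a1 window holds neither motif. Promoters were found for 40 of the 51 genes. This core occurred in 2 of these 40 (5%), Eif2ak2 and Eif3a, against 3.99% of 27025 genes in the table, and Eif3a had a change of -0.16 (adjusted p = 0.253). CAGCTG occurred in 5 of the 40 (12.5%), against 18.3% of all genes: Eef1a2, Eef2k, Eif4e, Eif5b and Eef2. The first 4 fell and Eef2 did not pass the threshold, where 37.3% of the 51 genes and 28.2% of all genes were called lower. A link between the motif and the changes was not tested. A match describes the letters of the window and does not show binding.

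The isoform pair of elongation moved in opposite directions. Eef1a1, which encodes the eEF1A form of most tissues, had log2 signals of 14.02, 13.93 and 13.67 in the arrays labelled transgenic, against 12.61, 12.55 and 12.73 in wild type. The lowest of the 3 values labelled transgenic stood above the highest wild-type value. The change was 1.25 (SE 0.126, limma adjusted p = 6.28e-05), a 2.37-fold rise, or 0.90 when arrays were scaled on commonly detected probes. Its dimmer probe, ILMN_1377920, rose by 1.21. Eef1a2, the form of muscle fibres and neurons, had 13.45, 13.21 and 13.44 in the arrays labelled transgenic, against 13.84, 14.01 and 13.86 in wild type. All 3 wild-type values were the higher ones. It fell by 0.54 on the log2 scale (SE 0.118, adjusted p = 0.0044), and by 0.90 when arrays were scaled on commonly detected probes. The other Eef1a2 probes had changes of -0.51 (adjusted p = 0.0149 over probes) and -0.33 (adjusted p = 0.0506).

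A difference taken within each array is free of any shift of the whole array. Eef1a2 minus Eef1a1 was -0.57, -0.72 and -0.24 in the arrays labelled transgenic, against 1.23, 1.46 and 1.13 in wild type. The difference between the groups was -1.78 on the log2 scale (exact two-sided permutation p = 0.1, the smallest that 3 arrays against 3 allow). Over the 6 pairings of an Eef1a2 probe with an Eef1a1 probe the shift ranged from -1.55 to -1.78, each without overlap of the groups. This measures the unequal change of the genes, not their relative amounts, since signals of different probes are not on a common scale. Eef1a1 has many processed pseudogenes, and which transcripts its probes match was not examined.

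**Figure D2:**
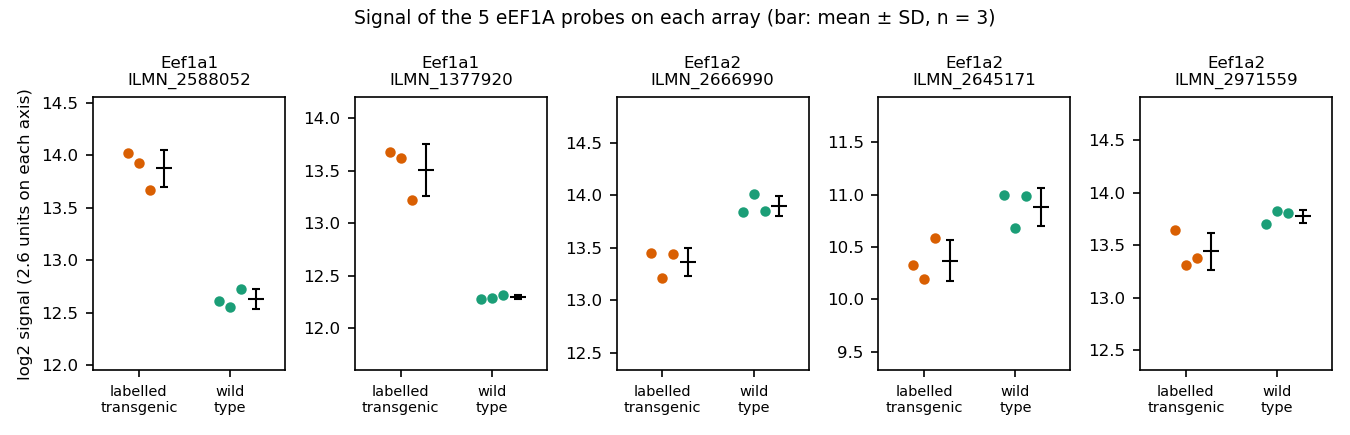
The log2 signal (vertical axes, all 2.6 units long) of each eEF1A probe is shown for the 3 arrays labelled transgenic (left) and the 3 wild-type arrays (right), with mean ± SD. Both Eef1a1 probes are higher and all 3 Eef1a2 probes are lower in the arrays labelled transgenic, with no overlap of the groups.

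Other subunits of the eEF1 complex, which recycle eEF1A, did not pass the threshold. The exchange factor genes Eef1b2 and Eef1d had changes of 0.12 (adjusted p = 0.456) and 0.09 (adjusted p = 0.472), and the scaffold gene Eef1g had -0.08 (adjusted p = 0.531). A much dimmer Eef1d probe, above background on 3 arrays labelled transgenic and 2 wild-type arrays, rose by 1.14 (adjusted p = 0.000242 over probes). Under scaling on detected probes Eef1g fell by 0.46 (adjusted p = 0.00514). Eef1e1, whose product sits in the complex of aminoacyl-tRNA synthetases, had a change of -0.19 (adjusted p = 0.215).

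Both measured methyltransferases of eEF1A were lower, where 28.2% of all genes were called lower. Eef1akmt1, which methylates a lysine of eEF1A, had 8.28, 8.55 and 8.55 in the arrays labelled transgenic, against 9.74, 9.86 and 9.97 in wild type. The groups were far apart relative to their spread, and the change was -1.40 (SE 0.124, adjusted p = 3.22e-05). Eef1aknmt, which methylates the N-terminus and a lysine of eEF1A, had 6.58, 5.89 and 5.99 in the arrays labelled transgenic, against 6.65, 7.06 and 6.99 in wild type. The groups did not overlap, although the highest array labelled transgenic came close to the lowest wild-type array. It fell by 0.75 (adjusted p = 0.0109), but by 0.37 with arrays scaled to the median of all probes, where it did not pass (adjusted p = 0.17), and by 0.47 with no background correction.

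The kinase of eEF2 showed the largest change of any translation factor. Eef2k, the calcium- and calmodulin-dependent kinase that halts elongation by phosphorylating eEF2, had log2 signals of 6.26, 6.39 and 6.38 in the arrays labelled transgenic, against 8.94, 8.89 and 8.96 in wild type. The 3 values of each group lay close together and far from the other group. The change of -2.59 (SE 0.102, adjusted p = 5.88e-07) is 6.01-fold, and it ranked 43 among all 9978 genes ordered from the most negative change. The size of the Eef2k change depended on the processing. It was -2.00 with no background correction, -2.18 with an offset of 50 and -2.32 under scaling to the all-probe median. The mRNA of its substrate, Eef2, had 9.29, 9.27 and 9.39 in the arrays labelled transgenic, against 10.04, 9.37 and 9.80 in wild type. The groups overlapped through wild-type replicate 2, which lay below the highest array labelled transgenic. Its change of -0.42 did not pass the threshold (SE 0.167, adjusted p = 0.0588), though it did in 7 of 17 alternatives, with -0.60 and an adjusted p of 0.0076 without wild-type replicate 2. The other Eef2 probes had changes of -0.32 and -0.45 (adjusted p = 0.117 and 0.027 over probes), the second of which passed.

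Eef2kmt, the lysine methyltransferase of eEF2, had 7.09, 6.70 and 6.76 in the arrays labelled transgenic, against 7.19, 7.30 and 7.41 in wild type. It fell by 0.45 (adjusted p = 0.0203) with no overlap. Its other probe, a little dimmer, rose by 0.76 (adjusted p = 0.000452 over probes), so the direction of this gene depends on the probe. The fall of the first probe did not pass without transgenic replicate 2 or 3 (adjusted p = 0.0706 and 0.0574) or without wild-type replicate 2 or 3 (adjusted p = 0.0503 and 0.0697). Scaling to the all-probe median left it at -0.099 (adjusted p = 0.617), and the mean of both probes was 0.16 (adjusted p = 0.205). Among the 27 translation factor genes with several kept probes it was the only one whose probes were called in opposite directions.

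**Figure D3:**
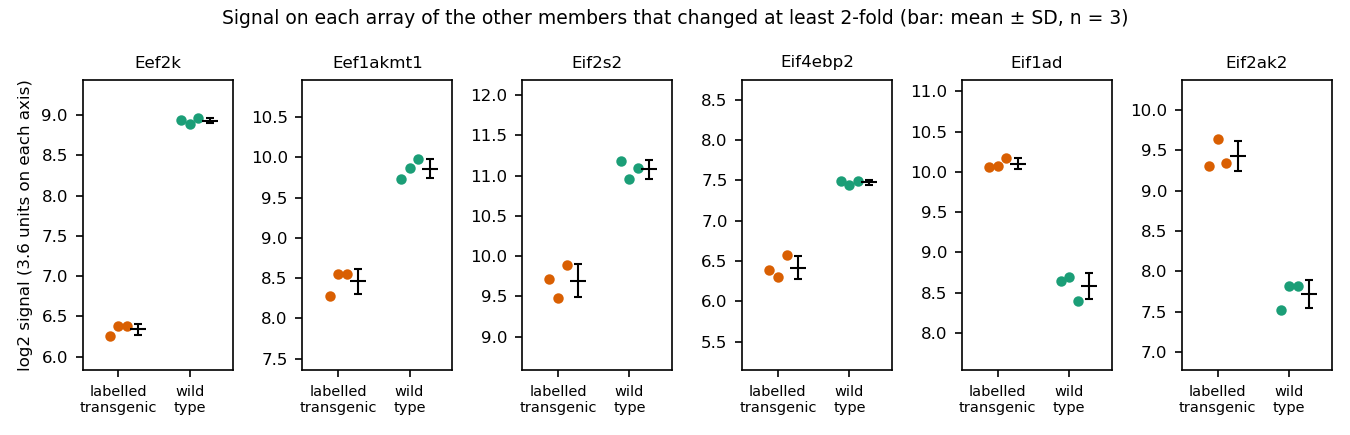
The log2 signal (vertical axes, all 3.6 units long) of the 6 other genes that changed at least 2-fold is shown for the arrays labelled transgenic (left) and the wild-type arrays (right), with mean ± SD of 3 arrays. In each gene the groups do not overlap, with the arrays labelled transgenic lower for Eef2k, Eef1akmt1, Eif2s2 and Eif4ebp2 and higher for Eif1ad and Eif2ak2.

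The eIF2 genes and the genes of its control were counted apart: of 6 subunit genes of eIF2 and eIF2B 1 rose and 3 fell, and of 3 kinase genes 2 rose and 0 fell. Of all genes 28.1% were called higher and 28.2% lower. Eif2s2, the β subunit of eIF2 that binds eIF5 and eIF2B, had 9.72, 9.48 and 9.89 in the arrays labelled transgenic, against 11.19, 10.95 and 11.09 in wild type. It fell by 1.38 (SE 0.136, adjusted p = 5.37e-05), 2.6-fold, and its second probe fell by 1.31. eIF2B reloads eIF2 with GTP and is the target that phosphorylated eIF2 blocks. Its γ subunit gene Eif2b3 had 8.31, 8.31 and 8.41 in the arrays labelled transgenic, against 9.31, 9.12 and 9.34 in wild type. By contrast the δ subunit gene Eif2b4 had 11.34, 11.25 and 11.22 in the arrays labelled transgenic, against 10.61, 10.62 and 10.74 in wild type. Neither gene's groups overlapped, and the changes were -0.91 (adjusted p = 0.000179) and 0.61 (adjusted p = 0.00121), the second being 0.41 under scaling on detected probes. Eif2b5, the catalytic ε subunit, fell by 0.35 (adjusted p = 0.0246) and lost the call when transgenic replicate 2, wild-type replicate 2 or wild-type replicate 3 was left out (adjusted p = 0.0726, 0.0522 and 0.0874), and under scaling to the all-probe median (-0.27, adjusted p = 0.0912). The other Eif2b5 probes had changes of -0.59 and -0.51 and passed (adjusted p = 0.00231 and 0.0122 over probes). The genes of the α and β subunits, Eif2b1 and Eif2b2, had changes of -0.09 and -0.30 (adjusted p = 0.527 and 0.0944). Eif2a, a separate initiator-tRNA binding protein, had 0.05 (adjusted p = 0.676).

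Eif2ak2, the double-stranded RNA sensor PKR and itself an interferon-induced gene, had 9.30, 9.65 and 9.34 in the arrays labelled transgenic, against 7.52, 7.82 and 7.82 in wild type. The rise of 1.71 (SE 0.139, adjusted p = 1.99e-05) is 3.27-fold and the largest among the 51 genes. The macrophage and immune markers without Fcgr1, 12 of 12, were also higher on these arrays, and a link to the Eif2ak2 rise was not tested. Eif2ak3, the endoplasmic reticulum stress kinase PERK, had 6.76, 6.79 and 7.0 in the arrays labelled transgenic, against 6.17, 6.36 and 6.67 in wild type. Its rise of 0.45 (adjusted p = 0.0294) no longer passed without transgenic replicate 2 or 3 (adjusted p = 0.0548 and 0.0871) or without wild-type replicate 1 or 2 (adjusted p = 0.0973 and 0.0747), nor when dim probes were kept in (adjusted p = 0.0511). The change was 0.29 with no background correction and 0.83 under scaling to the all-probe median (adjusted p = 0.000906). Eif2ak1, the heme-regulated kinase, had a change of 0.06 (adjusted p = 0.775).

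Among 7 genes of scanning, start-codon choice and subunit joining 3 rose and 3 fell, and in all 7 the groups did not overlap, where 28.1% of all genes were called higher, 28.2% lower and 63.8% had groups apart. Eif1ad encodes a protein with an eIF1A-like domain and was placed in this group by its symbol, not by a known role in scanning. Its signals were 10.06, 10.07 and 10.18 in the arrays labelled transgenic, against 8.65, 8.69 and 8.39 in wild type. Eif1ad rose by 1.53 (SE 0.119, adjusted p = 1.55e-05), as did a second probe by 1.68, while the third had 0.12 (adjusted p = 0.513 over probes). Eif1a, a gene for the scanning factor eIF1A, had 8.09, 8.27 and 8.12 in the arrays labelled transgenic, against 7.55, 7.54 and 7.38 in wild type. The rise was 0.67 (adjusted p = 0.00099). Eif5b, the GTPase of subunit joining, had 5.67, 5.81 and 5.99 in the arrays labelled transgenic, against 7.18, 6.68 and 6.46 in wild type. It fell by 0.95 (SE 0.186, adjusted p = 0.00242), with the wild-type arrays more spread than the others. With no background correction it was -0.57, and under scaling to the all-probe median -0.59. Eif6, which keeps free large subunits from joining, rose by 0.67 (adjusted p = 0.000947), and Eif5, the GTPase activator of eIF2, fell by 0.50 (adjusted p = 0.00379). The other Eif5 probes had -0.35 and -0.27 and did not pass (adjusted p = 0.106 and 0.0901 over probes). Only the brighter Eif6 probe rose: the other, above background on 2 wild-type arrays, had -0.05, and the mean of both did not pass (0.31, adjusted p = 0.0598). Eif2d, a factor that can place tRNA without eIF2, fell by 0.46 (adjusted p = 0.00779), but not with arrays scaled to the median of all probes (-0.26, adjusted p = 0.141). Eif1b had a change of -0.24 (adjusted p = 0.11), or -0.39 under scaling on detected probes, where it passed (adjusted p = 0.0232).

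The eIF3 subunits, which form the scaffold on the small ribosomal subunit, changed in both directions: 1 of 10 rose and 4 fell. Of all genes 28.1% were called higher and 28.2% lower. Eif3d, the subunit able to bind mRNA caps, had 11.76, 11.59 and 11.61 in the arrays labelled transgenic, against 11.06, 11.13 and 11.11 in wild type. It rose by 0.55 (adjusted p = 0.00215), or by 0.34 under scaling on detected probes. Eif3f, a subunit known as a target of the atrophy ligase MAFbx in muscle, had 12.58, 12.64 and 12.52 in the arrays labelled transgenic, against 13.24, 13.07 and 13.13 in wild type. It fell by 0.57 (adjusted p = 0.0019), and its second probe by 0.52. Eif3j1, a loosely bound subunit, had 6.43, 6.90 and 7.25 in the arrays labelled transgenic, against 7.66, 7.89 and 7.49 in wild type. The change of -0.81 (SE 0.205, adjusted p = 0.00876) came with the widest spread among the called eIF3 genes, and it was -0.49 under scaling to the all-probe median (adjusted p = 0.0418). Eif3i and Eif3c fell by 0.39 and 0.38 (adjusted p = 0.0149 and 0.0171). Eif3c lost the call without wild-type replicate 1 (adjusted p = 0.0603) and under scaling to the all-probe median (-0.13, adjusted p = 0.451). Eif3i lost it without transgenic replicate 1 or wild-type replicate 2 (adjusted p = 0.05 and 0.0502), and was at -0.66 under scaling on detected probes. The other Eif3i probes had changes of -0.50 and -0.54 and passed (adjusted p = 0.0079 and 0.00518 over probes). The core genes Eif3a and Eif3b had changes of -0.16 and 0.25, neither past the threshold (adjusted p = 0.253 and 0.146). Eif3k and Eif3l had 0.10 and 0.22 (adjusted p = 0.488 and 0.0864). Eif3b passed in 1 of the 17 alternatives and Eif3l in 3. Eif3h had -0.39 (adjusted p = 0.0788) and passed without wild-type replicate 3 (-0.54, adjusted p = 0.0305).

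The cap-binding and helicase genes split, with 4 of 9 higher and 3 lower, where 28.1% of all genes were called higher and 28.2% lower. Eif4e, the cap-binding protein, had 5.76, 5.68 and 6.06 in the arrays labelled transgenic, against 6.87, 6.72 and 6.50 in wild type. It fell by 0.87 (SE 0.145, adjusted p = 0.00106), but by 0.51 with no background correction and by 0.50 under scaling to the all-probe median. Eif4e2, a cap-binding relative that can repress translation, had 9.98, 9.93 and 10.03 in the arrays labelled transgenic, against 9.03, 9.16 and 9.04 in wild type. It rose by 0.90 (SE 0.103, adjusted p = 0.000125), and so did a dim probe (0.73), while another had 0.07 and the mean of the probes 0.57. The other relative, Eif4e3, had 0.31 (adjusted p = 0.0557) and passed in 5 of the 17 alternatives. Its dimmer probes had 0.39 and 0.32, of which the first passed (adjusted p = 0.0193 and 0.321 over probes). Eif4a1, the main helicase of initiation, had 12.27, 12.12 and 12.06 in the arrays labelled transgenic, against 11.51, 11.52 and 11.48 in wild type. The rise was 0.65 (adjusted p = 0.000952), or 0.67 by its second probe. Its paralogue Eif4a2, a closely related helicase abundant in brain and muscle, had a change of -0.13 (adjusted p = 0.391). Scaling on detected probes gave -0.40 for Eif4a2 (adjusted p = 0.0309). Eif4a3, the related helicase of the exon junction complex, rose by 0.56, and Eif4h, a cofactor of the helicase, by 0.39, which did not pass under scaling on detected probes (0.17, adjusted p = 0.223). Eif4b, the other cofactor, fell by 0.63 and Eif4g2, which initiates without eIF4E, by 0.61 (adjusted p = 0.00224 and 0.00173). Eif4b was at -0.25 (adjusted p = 0.125) under scaling to the all-probe median and at -0.38 with no background correction, and 1 of 3 Eif4g2 probes had -0.16.

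Of the repressors of eIF4E 1 of 3 fell, where 28.2% of all genes were called lower. Eif4ebp2, the 4E-binding protein best known from brain, had 6.38, 6.30 and 6.57 in the arrays labelled transgenic, against 7.49, 7.45 and 7.49 in wild type. The change was -1.06 (SE 0.112, adjusted p = 8.25e-05), 2.08-fold, but -0.73 with no background correction and -0.72 under scaling to the all-probe median. Eif4ebp1, the main form in muscle and fat, had 10.46, 10.25 and 10.32 in the arrays labelled transgenic, against 10.43, 10.62 and 10.46 in wild type. Here the groups overlapped and the change was -0.16 (SE 0.114, adjusted p = 0.271). Scaling on detected probes gave -0.32 (adjusted p = 0.0407). Eif4enif1, which carries eIF4E into the nucleus, had -0.21 (adjusted p = 0.17). Eif5a, the hypusine-bearing factor that eases stalled ribosomes, had 11.18, 11.12 and 11.06 in the arrays labelled transgenic, against 11.06, 11.31 and 11.36 in wild type. The groups overlapped and the change was -0.12 (adjusted p = 0.412), with 0.07 and 0.13 by its other probes. Scaling on detected probes gave -0.35 for Eif5a (adjusted p = 0.034).

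**Figure D4:**
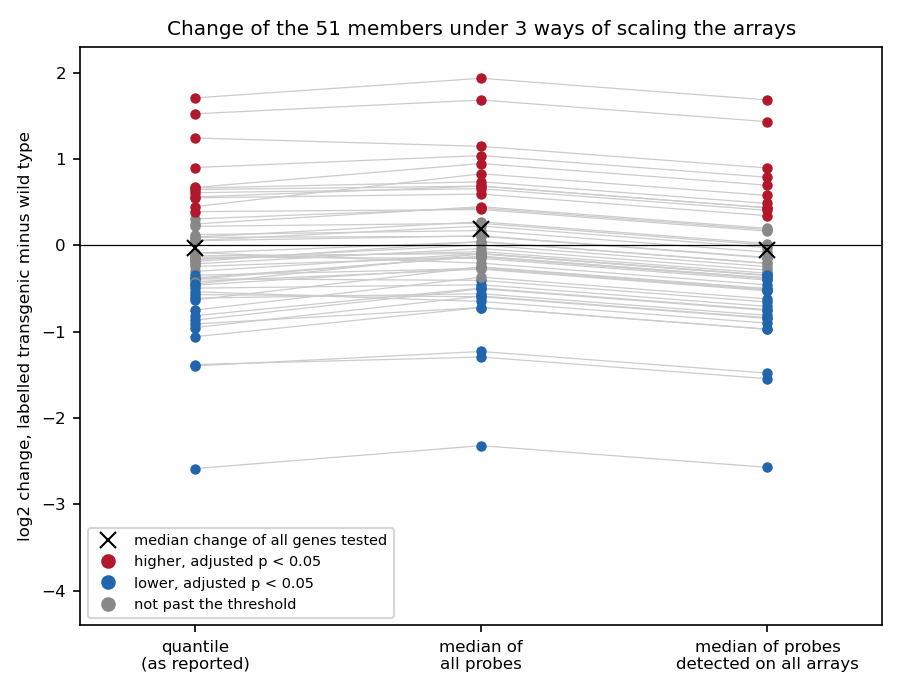
Each line joins the log2 change of 1 of the 51 genes (vertical axis, labelled transgenic minus wild type) under quantile normalization and under 2 scalings of arrays to a median, with crosses for the median change of all genes. From left to right 12, 14 and 11 genes are called higher and 19, 13 and 25 lower, and the 7 genes past 2-fold keep their direction in each.

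Other genes of translation were read from 5 lists, to be set against 28.1% of all genes called higher and 28.2% called lower. Of 11 partners of the cap and the poly(A) tail 6 fell and 0 rose, with a median change of -0.63, where 28.2% of all genes were called lower. Paip2b, a repressor of the poly(A)-binding protein, fell by 1.26 (adjusted p = 0.000144) and Paip1, which helps that protein stimulate initiation, by 1.10 (adjusted p = 0.000421), or by 0.71 with no background correction. The others that fell were Larp1 (-1.01), which binds mRNAs of the translation machinery, the poly(A)-binding protein gene Pabpc4 (-0.91) and the helicase genes Dhx29 (-0.76) and Ddx3x (-0.63). Under scaling to the all-probe median Dhx29 was at -0.47 and Ddx3x at -0.30, where Ddx3x did not pass (adjusted p = 0.217), as it did not without transgenic replicate 1 or wild-type replicate 1 or 2 (adjusted p = 0.068, 0.0642 and 0.061). Of 16 genes of mTORC1 and phosphorylation control 1 rose and 4 fell (median -0.12). Rptor, the mTORC1 scaffold, rose by 0.57, while Ddit4l, Tsc1 and Akt1s1, whose products restrain mTORC1, fell (changes of -1.35, -0.997 and -0.67), as did its activator Rheb (-0.36). Tsc1 was at -0.48 by the mean of its probes, -0.49 with no background correction, -0.59 with an offset of 50 and -1.52 in the authors' values. Rheb was at -0.58 under scaling on detected probes and lost its call without transgenic replicate 1 or wild-type replicate 2 or 3 (adjusted p = 0.0679, 0.0813 and 0.0622). Of 8 termination and recycling genes 4 rose and 2 fell (median 0.13). The release factor gene Gspt1 rose by 0.58, or by 0.37 under scaling on detected probes. Gspt2 is among the 4 but was above background on no wild-type array, so it has only a bound there (at least 1.15-fold higher). The others, Mcts1 (0.38) and Pelo (0.30), lost the call in 8 and 7 of the 17 alternatives. Abce1, which splits ribosomes, and the rescue factor gene Hbs1l fell by 0.43 and 0.33, calls lost in 12 and 7 of the 17 alternatives. Of 7 genes for the modification of eEF2 and eIF5A and for selenocysteine elongation 1 rose, Dph1 of diphthamide synthesis, by 0.50, or by 0.77 under scaling to the all-probe median.

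The mitochondrial counterparts, which serve the ribosome of the organelle, changed in both directions. Of 10 measured, 4 rose and 2 fell, with a median change of 0.32, where 28.1% of all genes were called higher and 28.2% lower. Tufm, the mitochondrial elongation factor that corresponds to eEF1A, rose by 1.39 (adjusted p = 1.5e-05), and its exchange factor gene Tsfm rose by 1.02 (adjusted p = 0.000115). The mitochondrial translocase gene Gfm1 rose by 0.91 and the initiation factor gene Mtif2 by 0.39 (adjusted p = 0.000134 and 0.038). The Mtif2 call was lost in 5 of the 17 alternatives, and its change was 0.65 under scaling to the all-probe median and 0.25 without wild-type replicate 1. The release factor gene Mtrf1 fell by 1.11 (adjusted p = 5.96e-05) and Gfm2, which recycles mitochondrial ribosomes, by 0.38 (adjusted p = 0.0304), a call lost in 5 of the 17 alternatives. These were 4 of the 6 that leave out an array (all but transgenic replicates 1 and 3; adjusted p = 0.0558 to 0.0934) and scaling to the all-probe median (-0.25, adjusted p = 0.152).

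**Figure D5:**
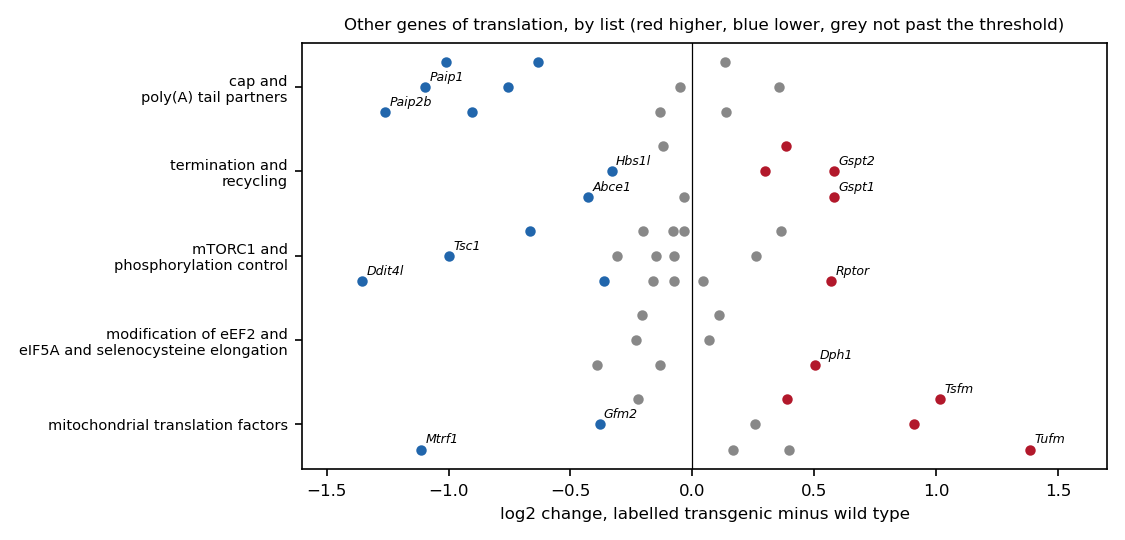
The log2 change (horizontal axis, labelled transgenic minus wild type) of 52 other genes of translation is drawn by list, with vertical offsets only for legibility. Named points are the largest called changes of each list: Tufm and Tsfm lie above 1, and Paip2b, Paip1, Ddit4l and Mtrf1 below -1.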

How the data were processed

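Total RNA signals of 6 tibialis anterior samples, 3 per label, were read on Illumina Mouse WG-6 v2 arrays. The deposited non-normalized table holds, per the file headers, a probe intensity and a detection p-value for each array, and the submitters' processing notes name GenomeStudio. The authors' other deposited table holds intensity values that run below 0 and was used as an alternative. Intensities were corrected with normexp (neqc, offset 16), quantile normalized and taken to log2 from the deposited values in limma 3.58.1 (R 4.3.3). On at least 3 arrays 17166 probes reached a detection p-value under 0.05, and the 14803 of them with 1 gene symbol were used (of 34885 so named on the array). The brightest by mean stood for its gene. The 2 groups were compared with lmFit and eBayes, with Benjamini-Hochberg adjustment over 9978 genes. The fitting step alone was tested, on simulated log2 values with few changed genes, so background correction and normalization were not tested. With 3 arrays per group the number of arrays limits the precision.

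The members and lists were chosen with earlier results of these data known. Per-array values are given for 24 genes: a list of central factors (the eEF1A pair, Eef2, Eef2k, Eif4e, Eif4ebp1, Eif4ebp2, Eif2ak2, Eif2ak3 and Eif5a) and, in each role group, up to 3 called genes with the largest changes. In the other lists, up to 2 called genes in each direction with the largest changes are named, and further called genes, with their alternatives, were added after their values were seen. A gene below background on every array of 1 group has only a bound there: the mean of the other group against, per array, the higher of its own signal and the lowest signal of any probe above background. Promoter sequences are from RefSeq (GRCm38.p6). Alternatives covered background correction, scaling, filter, probe choice, the authors' values, a replicate block, array weights, eBayes settings and each array left out.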

Additional observations from a re-analysis of the deposited data

How the results depend on the processing

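Over 17 alternatives, 6 of them leaving out 1 array, between 27 and 36 of the 51 genes were called, against 31 as reported (28 to 30 with 1 array left out), and 21 of the 31, 9 higher and 12 lower, were called the same way in all 17. The shift of Eef1a2 minus Eef1a1 ranged from -1.92 to -1.68. These values changed sign, the cause not being tested. With arrays scaled to the median of all probes, Eif2b1 was at 0.042, Eif3a at 0.0047 and Eef1e1 at 0.045. With arrays scaled to detected probes, Eif2a was at -0.14, Eif2ak1 at -0.026, Eef1b2 at -0.078 and Eef1d at -0.15. With the mean of a gene's probes, Eif5a was at 0.027 and Eef2kmt at 0.16. Eif2ak1 was at -0.031 without transgenic replicate 3 and at -0.064 without wild-type replicate 1 (from -0.064 to 0.18 over the 6 arrays left out). Of these genes only Eef2kmt was called as reported.

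With the replicate number as a block, 31 genes were again called, 12 higher and 19 lower, and of the partner genes Hbs1l, Mcts1 and Pelo lost their calls (adjusted p = 0.0648, 0.066 and 0.0669). Deviations of same-numbered arrays from their group means correlated at -0.051, 0.031 and -0.0022. With 3 arrays per group this cannot settle whether same-numbered arrays were processed together. No chip block could be fitted, as the file headers name no BeadChip. Dim probes near background, among them the second Eef1d and Eif6 probes, limit what can be read from their changes.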

Other observations

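Among the 27 translation factor genes with several kept probes (90 probes with those of the other genes), 11 had probes that differed in call. The second probes of Eef1d and Eif4e2 show both cases: Eef1d had 0.09 by its bright probe and 1.14 by its dim one, and Eif4e2 had 0.90 by its bright probe and 0.07 by a dimmer one.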
